A study of Mus musculus with 27 samples.

Results

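The addition of transforming growth factor β1 (TGFβ1) was compared with the DMSO vehicle in adult mouse cardiac fibroblasts (CFs) that carried 5 cardiac transcription factors. The comparison took the 3 arrays labelled CF 5F TGFb and the 3 labelled CF 5F DMSO, which are 6 of the 27 arrays of the series. Every gene was kept for which a probe set carries a single gene symbol, and the probe set with the highest mean over all 27 arrays stood for its gene, which gave 19938 genes.

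The factors were Hand2, Nkx2-5, Gata4, Mef2c and Tbx5, named HNGMT here and 5F in the labels. Both groups received them from doxycycline-dependent lentiviruses, together with an rtTA lentivirus and a calcium reporter driven by the Troponin T promoter. CFs came from the minced hearts of mice 8 to 12 weeks old and were used at passage 3. Plating with the rtTA and reporter viruses took place at Day -2. The factor viruses and either 2 ng/mL TGFβ1 or DMSO followed at Day -1 (whether the TGFβ1 cultures also received DMSO is not given in the sources used here), doxycycline at 2 µg/mL was given from Day 0, and RNA was collected at Day 3. The methods of the study also describe, at Day 0, a change to a reprogramming medium and a further lentivirus for nuclear mCherry. The labels call the arrays of a group independent replicates but do not say which hearts they came from, so the p-values measure the spread between these cultures. No CF culture without the factors was analysed here, and the text of the protocol given with these samples speaks of embryonic fibroblasts. A culture is bulk RNA, so that fewer cells of a type and less RNA per cell cannot be told apart.

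TGFβ1 binds a pair of receptor kinases that phosphorylate Smad2 and Smad3, which then enter the nucleus with Smad4 and act on genes together with other factors. In the heart the ligand is best known for turning resident fibroblasts into myofibroblasts, cells with smooth muscle actin fibers that deposit collagen and elastic matrix after injury. It also slows the division of many cell types and acts on endothelial cells, where a related branch of the family, the BMPs, induces the Id genes.

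The deposited log2 intensities of these 6 arrays ran from 4.24 to 14.34, with array medians of 7.36 to 7.42 over all probe sets and of at most 8.05 over the genes. Arrays of one group correlated at 0.996 to 0.999 across all genes, and arrays of different groups at 0.988 to 0.992, where genes are not independent replicates. For 376 genes the 3 arrays of a group hold one and the same value, so their SD of 0 is a property of the deposited table, and 10 of these are among the called genes. Of the other arrays, the CF HNGMT+SB replicate 3 stands apart from its group, and it was not part of the fit.

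The label cardiac fibroblast was set against marker genes first. Vim, which encodes vimentin, had 13.78, 13.79 and 13.75 in the DMSO arrays and 13.78, 13.75 and 13.77 in the TGFβ1 arrays, and Thy1, Col1a1, Dcn and Fn1 also lay far above the array medians. In the same arrays the endothelial transcripts were high too. Cdh5, the VE-cadherin of endothelial junctions, had 12.62, 12.62 and 12.59 with DMSO and 12.64, 12.65 and 12.62 with TGFβ1, and 98.8% of genes were dimmer with DMSO. Emcn (endomucin) had a DMSO mean of 13.03 ± 0.06 and Pecam1 one of 11.73 ± 0.11 (SD, n = 3). Over the 28 measured endothelial markers the mean level per DMSO array was 9.94 to 9.96, and 6 of the 28 (Aplnr, Cldn5, Fabp4, Gpihbp1, Nos3 and Sox17) were below the median gene in all 6 arrays. In mouse embryonic fibroblasts (MEFs) with HNGMT and DMSO that mean was 7.62 to 7.73, although levels compare only loosely between cell types whose array medians differ (7.83 to 7.91 in MEFs). The DMSO level in CFs was more than 2 log2 units above that in MEFs for 16 of the 28 endothelial markers and for 0 of 25 fibroblast markers, and more than 2 below it for 7 of the fibroblast markers, among them Lum, Postn, Dpt and Col3a1. Tcf21, a transcription factor of resident cardiac fibroblasts, lay at 6.51 to 6.86 with DMSO. Of the 25 fibroblast markers 6 (Dpt, Fap, Meox1, Pi16, Tcf21 and Wif1) were below the median gene in all 6 arrays. The cultures thus carried defining transcripts of endothelium beside those of fibroblasts, and the name CFs below is that of the label. Of 27 leukocyte markers 25 were below the median gene in all 6 arrays, and of 26 skeletal muscle markers 21 were. Of 16 epicardial and mesothelial markers 6 were, among them Wt1 and Msln, while Gpm6a and Aldh1a1 had DMSO means of 12.27 and 12.07. The DMSO level in CFs was more than 2 log2 units above that in MEFs for 2 of these 16 and more than 2 below it for 2.

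With TGFβ1, 972 genes were higher and 1128 lower than with DMSO. A gene was called when the Benjamini-Hochberg adjusted p of limma over all genes was under 0.05 and its log2 difference at least 0.32 in size, the fold limit the study used for CFs, which holds for 4.88% of the genes upwards and 5.66% downwards. Counts of called list members below are to be read against these shares. Some genes are in several lists, so that the counts of different lists are not independent. Ltbp2, Postn and Tgfbi, for example, are in the lists of TGFβ targets and of matrix glycoproteins. Tgfbr3 is in those of the TGFβ pathway and of cardiac regulators. The 3 arrays of one group lay wholly above or below those of the other for all 2100 called genes, and for 6556 of all genes (32.9%). At least 2-fold differences were found for 136 genes that rose and 116 that fell, and at least 4-fold for 20 and 3. The median over all genes was 0.00 on the log2 scale. In a fit of all 9 CF arrays, the SB arrays included, 621 genes rose and 439 fell, and 29 of the 44 gene lists with a call had their count lowered by over 1.5 times. With SB replicate 3 left out of that fit, 990 rose and 1157 fell. Unless another scale is named, a difference below is the mean of the TGFβ1 arrays minus that of the DMSO arrays in log2 units, with the standard error of the fit.

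**Figure D1:**
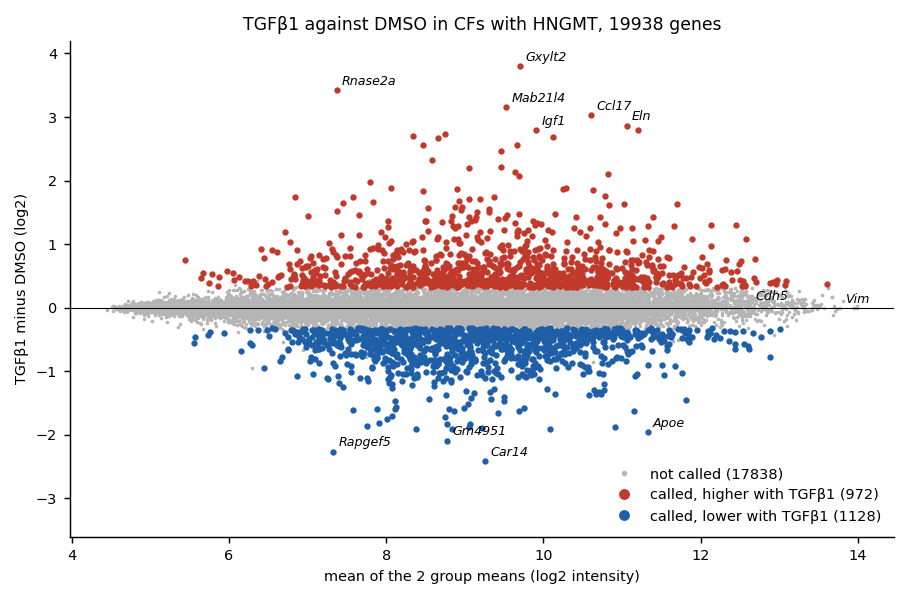
Each dot is 1 of 19938 genes, with the mean of the group means (log2 intensity) on the horizontal and the TGFβ1 minus DMSO difference (log2) on the vertical axis. The 972 genes called higher reach 3.80 (Gxylt2) and the 1128 called lower reach -2.42 (Car14), while Vim and Cdh5 lie on the zero line at the bright end.

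The strongest rise was that of Gxylt2, a xylosyltransferase that extends sugars on the extracellular repeats of Notch. It had 7.71, 7.83 and 7.85 in the DMSO arrays and 11.60, 11.58 and 11.61 in the TGFβ1 arrays. All TGFβ1 arrays lay well above all DMSO arrays, with a log2 difference of 3.80 (standard error 0.05, adjusted p = 3.53e-07), which is 13.9-fold. Eln encodes elastin, the rubber-like core of elastic fibers. Its values were 9.61, 9.63 and 9.63 with DMSO and 12.49, 12.48 and 12.50 with TGFβ1, again without overlap, with a log2 difference of 2.86 (standard error 0.03, adjusted p = 3.53e-07). Ccl17, a chemokine that attracts T cells, went from 9.06, 9.11 and 9.12 to 12.13, 12.15 and 12.09, with a log2 difference of 3.03 (standard error 0.04, adjusted p = 3.53e-07). Its arrays within a group differed by far less than the groups did. Igf1, the insulin-like growth factor that is also made by activated fibroblasts, had 8.41, 8.65 and 8.47 and 11.27, 11.31 and 11.32, with a log2 difference of 2.79 (standard error 0.07, adjusted p = 4.47e-06). The gene that was dimmest with DMSO among these was Rnase2a, a secreted ribonuclease, at 5.76, 5.66 and 5.55 against 9.25, 9.17 and 8.81 with TGFβ1. The other 10 of the 15 highest differences ranged from 2.33 to 3.15. They were Mab21l4, Fxyd6 (a regulator of the sodium pump), Cyp11a1 (the enzyme that starts steroid synthesis), Glp1r (the incretin receptor), Sfn (the 14-3-3 protein sigma), Mpzl2 (a cell adhesion protein), Piezo2 (a mechanosensitive channel), Anxa8 (an annexin), Sema7a (a membrane-anchored semaphorin) and Olr1 (a receptor for oxidized lipoprotein).

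The strongest fall was that of Car14, a membrane carbonic anhydrase, with 10.35, 10.53 and 10.51 in the DMSO arrays and 7.97, 8.03 and 8.13 in the TGFβ1 arrays. The groups were far apart, with a log2 difference of -2.42 (standard error 0.06, adjusted p = 6.03e-06). Rapgef5, an exchange factor for Rap GTPases, had 8.51, 8.42 and 8.43 and 6.10, 6.23 and 6.24, with a log2 difference of -2.26 (standard error 0.05, adjusted p = 4.25e-06). Apoe, the lipid carrier, was among the brightest genes with DMSO at 12.34, 12.22 and 12.35 and had 10.26, 10.45 and 10.32 with TGFβ1, with a log2 difference of -1.96 (standard error 0.06, adjusted p = 1.28e-05). The remaining 12 of the 15 lowest differences ran from -2.09 to -1.75. Angpt2 (an angiopoietin of endothelial cells) and Gpr182 (a receptor of endothelium) fell by 1.91 and 1.86. Gm4951, Iigp1, Gbp9 and BC023105 fell with more scatter, with standard errors of 0.31, 0.34, 0.24 and 0.39. The call of BC023105 was lost without DMSO replicate 3, without TGFβ1 replicate 2 and without TGFβ1 replicate 3, and that of Iigp1 without TGFβ1 replicate 3. The rest were Pde7b (a cyclic AMP phosphodiesterase), Hpse (heparanase), Serpind1 (heparin cofactor II), Acer2 (a ceramidase), Prkar2b (a regulatory subunit of protein kinase A) and Clec2d (a lectin).

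**Figure D2:**
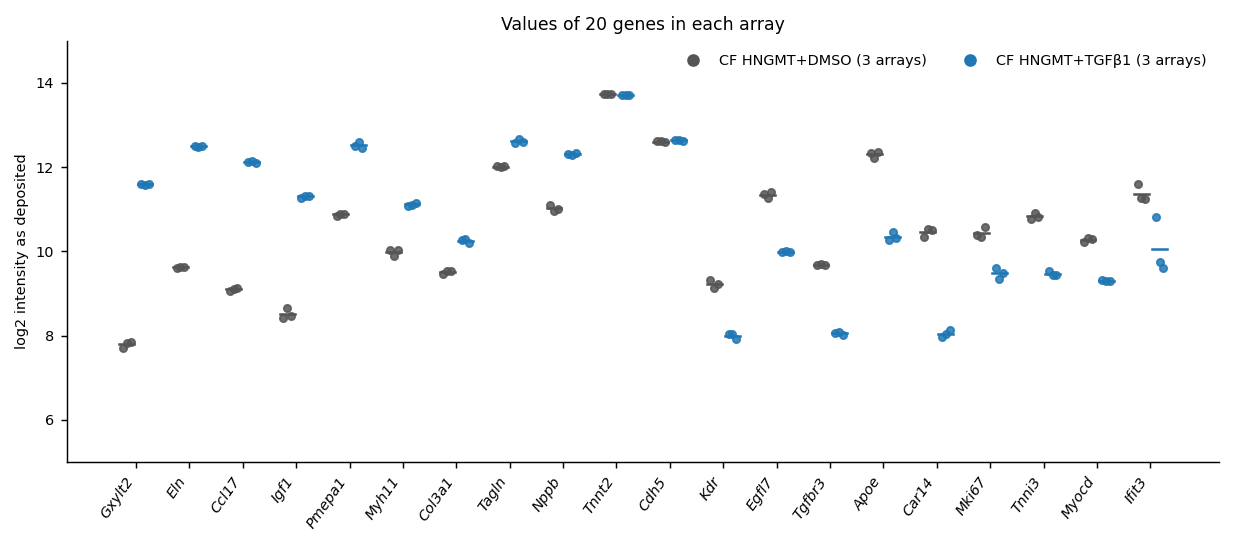
Log2 intensity, as deposited, of 20 genes, with dots for the 6 arrays and lines for the group means. Eln is at 9.61 to 9.63 with DMSO and 12.48 to 12.50 with TGFβ1, Cdh5 and Tnnt2 sit level in both groups, and Ifit3 shows one TGFβ1 array, replicate 1, above the other two.

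Known transcriptional targets of TGFβ were examined as a group. Of 30 measured, 20 rose, 3 fell and 7 were not called, with a median of 0.54, against 4.88% and 5.66% of all genes. The mean level over the list was 10.18 to 10.20 per DMSO array and 10.73 to 10.79 per TGFβ1 array. Pmepa1, a membrane inhibitor of the pathway, had 10.84, 10.89 and 10.90 with DMSO and 12.50, 12.59 and 12.45 with TGFβ1, with a log2 difference of 1.64 (standard error 0.05, adjusted p = 8.04e-06). The arrays did not overlap, nor did those of Nox4, an oxidase that makes hydrogen peroxide, which went from 8.40 ± 0.20 to 9.75 ± 0.10 (SD, n = 3). Ltbp2, a fibril protein related to the carriers of latent TGFβ, rose by 1.86 (standard error 0.05), Tgfbi, a secreted adhesion protein, by 1.29 (standard error 0.05), and Postn, the matrix protein periostin, by 1.47 (standard error 0.27). Ccn2, also known as connective tissue growth factor, rose by 0.38 from a DMSO level of 13.41, 13.41 and 13.41, close to the array maxima of 14.25 to 14.34. The members that fell were Lmcd1 (-0.64), Edn1, which encodes the vasoconstrictor endothelin-1 (-0.49), and Klf10, an early Smad target (-0.37). Smad7, the inhibitory Smad, had a difference of 0.19 (adjusted p = 0.0291), below the fold limit.

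Among the parts of the pathway itself, 9 of 36 measured rose and 6 fell, with a median of 0.10. Of the ligands, Tgfb1 rose by 0.41 and Tgfb2 fell by 0.43, and Tgfb3 had a difference of -0.14 (adjusted p = 0.113). Inhba, the activin A subunit, rose by 0.44, and Fst, which binds and blocks activin, went from 10.51 ± 0.12 to 11.76 ± 0.01 (SD, n = 3). The latent carriers Ltbp1 and Ltbp4 rose, as did the related Ltbp2, and Ltbp4 did so by 1.39 (standard error 0.06). The receptors went the other way where they were called. Tgfbr3, the co-receptor betaglycan, had 9.67, 9.70 and 9.67 with DMSO and 8.07, 8.09 and 8.01 with TGFβ1. Its arrays did not overlap and the difference was -1.62 (standard error 0.04, adjusted p = 4.13e-06). Tgfbr2, the ligand-binding receptor kinase, had a difference of -0.41, and Lrrc32, which displays latent TGFβ on cell surfaces, one of -0.59. Skil, a repressor of Smad complexes, rose by 0.54, and Bambi, a decoy receptor, fell by 0.39.

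Of 28 genes of BMP signaling, 2 rose and 7 fell, with a median of -0.10, and 0 were called by limma in the fit of 9 arrays (1 higher and 5 lower there at an unadjusted p under 0.05). The Id proteins keep basic helix-loop-helix factors from DNA and are the usual readout of BMP activity. Id2 had 12.16, 12.10 and 12.14 with DMSO and 11.29, 11.13 and 11.21 with TGFβ1, with a log2 difference of -0.92 (standard error 0.05, adjusted p = 6.35e-05). Id1 and Id3 fell as well, by 0.61 and 0.72, and so did Smad9, a BMP Smad, by 0.84. Bmp6 fell by 0.47. Hhex, a homeobox gene of this list, had the lowest difference at -1.10 (standard error 0.09), and Bmper and Nbl1, secreted BMP binders, were the members that rose. Bmp2, a BMP ligand, had 6.07, 6.18 and 6.03 and 5.75, 5.90 and 5.96, with an adjusted p of 0.0746, and was not called.

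Matrix genes came next. Of 41 genes of elastic fibers and matrix glycoproteins, 16 rose and 4 fell, with a median of 0.26. Besides Eln and Ltbp2, Adamtsl2, a secreted protein that binds fibrillin, had 9.69, 9.69 and 9.72 with DMSO and 11.52, 11.56 and 11.57 with TGFβ1, with a log2 difference of 1.85 (standard error 0.03, adjusted p = 1.85e-06). Both groups were tight and did not overlap. Ccn5 rose by 1.18, Tnc (tenascin C) by 0.79 and Fbln5 (fibulin 5, which helps to assemble elastin) by 0.40. The members that fell were Efemp1 (fibulin 3, -1.63), Lama4 (a laminin chain of vessel basement membrane, -0.69), Fbln1 (-0.51) and Thbs4 (-0.36). Fn1, which encodes fibronectin, was at 13.68 to 13.82 with DMSO and 13.66 to 13.71 with TGFβ1, near the array maxima, with a difference of -0.06.

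Of 33 collagen chains, 9 rose, 1 fell and 23 were not called, with a median of 0.18. Col11a1, a fibril-nucleating chain, went from 9.31 ± 0.08 to 10.62 ± 0.05 (SD, n = 3). Col3a1, the main chain of fine fibrils, had 9.46, 9.53 and 9.53 and 10.27, 10.30 and 10.19, with a log2 difference of 0.74 (standard error 0.04, adjusted p = 9.88e-05). Its levels did not overlap. Col12a1 rose by 0.80, Col6a3 by 0.82 and Col5a2 by 0.70. The chains of type I collagen were not called, Col1a1 with 0.29 (adjusted p = 0.0084, under the fold limit) and Col1a2 with 0.26 (adjusted p = 0.204). Col14a1, a chain found on fibril surfaces, was the member that fell, with -0.88. Without single arrays, 7 or 8 chains were called higher.

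Of 21 enzymes that finish collagen and elastin, 13 rose and 0 fell by limma (2 had an unadjusted p under 0.05 in that direction), with a median of 0.40 and a lowest difference of -0.15, and the count stayed at 13 without any single array of the 6. Lox, the lysyl oxidase that crosslinks collagen and elastin, had 12.14, 11.98 and 11.99 with DMSO and 13.18, 13.09 and 13.08 with TGFβ1, with a log2 difference of 1.08 (standard error 0.06, adjusted p = 5.90e-05). Loxl4 rose by 1.32, and the prolyl hydroxylase P4ha2 and the transglutaminase Tgm2 by 0.79 and 0.74. Loxl1, Loxl3, Plod1, Plod2 and Plod3 also rose.

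Proteoglycans were split, with 5 of 30 higher and 4 lower. Vcan (versican) rose by 0.90 and Has2, a hyaluronan synthase, by 0.91. Lum and Dcn, small leucine-rich proteoglycans that space collagen fibrils, fell, Lum from 8.38 ± 0.22 to 6.77 ± 0.16 and Dcn from 12.90 ± 0.05 to 12.29 ± 0.05 (SD, n = 3). Of 31 matrix proteases and inhibitors, 9 rose and 5 fell. Mmp9, a gelatinase, had 7.94, 7.97 and 7.96 and 10.35, 10.20 and 9.91, a difference of 2.20 (standard error 0.11, adjusted p = 4.90e-05), and Mmp2, Mmp14 and the inhibitor Timp1 rose by 0.40, 0.55 and 0.59. The plasminogen activators fell, Plau by 1.41 and Plat by 0.84, and Adamts1, Adamts5 and Adamts9 fell as well. Of 21 integrins, which anchor cells to this matrix, 8 rose and 4 fell. Itga2, a collagen-binding subunit, rose by 2.07, Itgb5, which takes part in releasing latent TGFβ, by 1.29 and Itga5, the fibronectin-binding subunit, by 0.80, whereas Itga8 had -1.05.

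**Figure D3:**
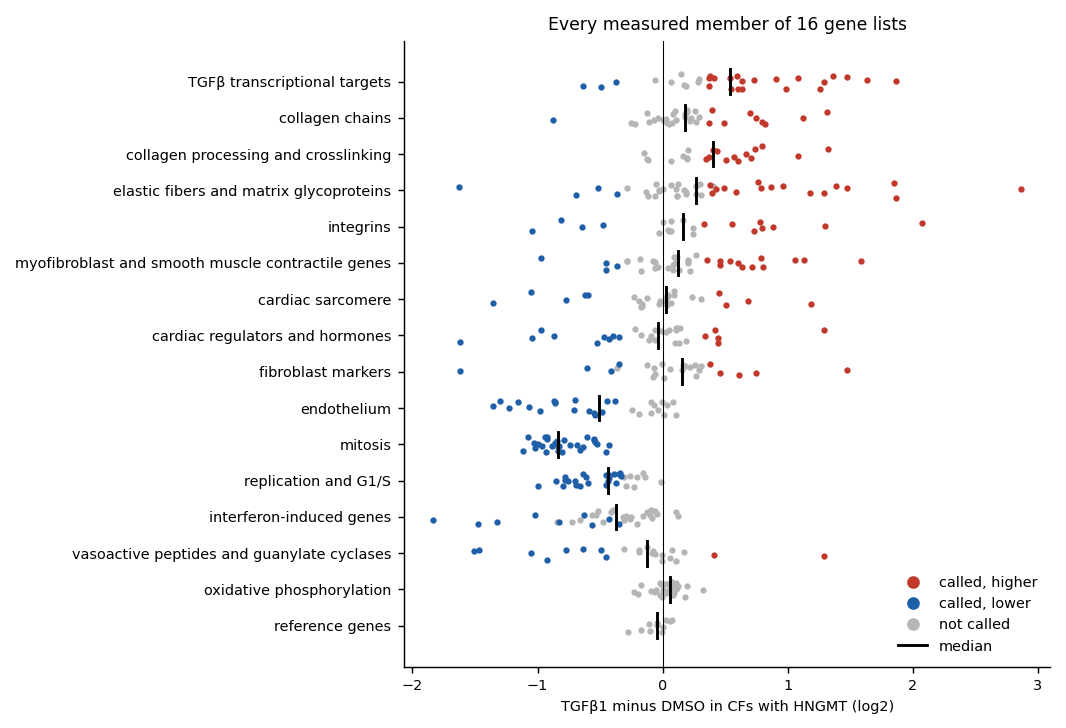
Each dot is a measured gene of 1 of 16 lists, placed at its TGFβ1 minus DMSO difference (log2), with black bars at the list medians. The median is 0.54 for TGFβ targets and 0.40 for collagen processing, -0.84 for mitosis and -0.51 for the endothelium, and close to 0 for oxidative phosphorylation and reference genes.

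Smooth muscle and myofibroblast contractile genes were a mixed group, in which 12 of 36 rose and 4 fell (median 0.12), and both counts were the same without any single array but 4 and 1 in the fit of 9 arrays. Myh11, the smooth muscle myosin heavy chain, had 10.02, 9.89 and 10.03 with DMSO and 11.09, 11.11 and 11.14 with TGFβ1, with a log2 difference of 1.13 (standard error 0.05, adjusted p = 3.00e-05). Cnn1 (calponin) went from 10.77 ± 0.01 to 11.82 ± 0.06, and Tagln (transgelin, SM22) from 12.01 ± 0.01 to 12.61 ± 0.04 (SD, n = 3). Kcnmb1, a subunit of the calcium-activated potassium channel of smooth muscle, rose by 1.59, and Actg2, Des, Pdlim7 and Myl9 were among the others that rose. Acta2, the smooth muscle actin that defines myofibroblasts, was already bright, at 13.47, 13.41 and 13.46 with DMSO and 13.69, 13.63 and 13.62 with TGFβ1. Its arrays did not overlap and its adjusted p was 0.0109, but the difference of 0.20 was below the fold limit. The members that fell were regulators rather than fiber proteins, apart from the kinase of myosin light chain. Myocd (myocardin, a partner of serum response factor that drives smooth and cardiac muscle genes) had 10.21, 10.31 and 10.30 and 9.31, 9.29 and 9.29, with a log2 difference of -0.98 (standard error 0.04, adjusted p = 2.45e-05). Mrtfa and Mrtfb, related partners of the same factor, fell by 0.36 and 0.45, and Mylk by 0.45. Srf itself had 0.10 (adjusted p = 0.144).

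Promoter letters were read for these groups in the 250 bases before the first listed start of each gene (RefSeq, GRCm38.p6), a window available for 15614 of the genes. The Smad motif CAGACA, on either strand, was found in 23 of 99 genes at least 2-fold higher, in 7 of 86 at least 2-fold lower and in 14.8% of all windows. The AP-1 motif TGANTCA was found in 11, in 8 and in 6.11% of all. The CArG box, the letters that serum response factor reads, was found in 7 of 29 contractile genes and in 195 of the 15614 windows, and in 1 of the 8 windows of contractile genes that rose, that of Myl9, a myosin light chain. Among the TGFβ targets that rose, Nox4, Smurf1 and Tgif1 held CAGACA and none of 14 held TGANTCA. The windows of Nox4 (chr7:87246399-87246648, plus strand) and Myl9 (chr2:156775214-156775463, plus strand) are shown because a member that rose and a motif coincide there, with the Smad motif and the CArG box in capitals.
Nox4: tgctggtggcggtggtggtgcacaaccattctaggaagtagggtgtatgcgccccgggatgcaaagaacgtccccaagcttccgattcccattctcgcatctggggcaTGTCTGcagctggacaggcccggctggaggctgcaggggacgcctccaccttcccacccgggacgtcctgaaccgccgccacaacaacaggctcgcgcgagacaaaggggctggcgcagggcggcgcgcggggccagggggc
Myl9: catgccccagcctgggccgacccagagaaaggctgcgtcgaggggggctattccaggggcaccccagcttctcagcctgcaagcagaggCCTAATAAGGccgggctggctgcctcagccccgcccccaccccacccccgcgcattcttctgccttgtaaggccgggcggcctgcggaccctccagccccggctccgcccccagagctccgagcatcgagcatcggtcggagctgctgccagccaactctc
A match describes these letters only, and no binding was measured.

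Cardiac genes, the intended product of the factors, moved both ways. Of 28 sarcomere genes 4 rose and 5 fell, with a median of 0.03. Tnni3, the cardiac troponin I, had 10.76, 10.92 and 10.81 with DMSO and 9.53, 9.43 and 9.45 with TGFβ1, with a log2 difference of -1.36 (standard error 0.05, adjusted p = 2.43e-05). Myl7, the atrial myosin light chain, had 10.48, 10.30 and 10.44 and 9.24, 9.35 and 9.47, a difference of -1.05. Neither gene overlapped between the groups. Actc1, the cardiac actin, fell by 0.62 with DMSO arrays at 10.53 to 10.69 and TGFβ1 arrays at 9.68 to 10.26, and Smpx and Mybpc3 fell too. Without DMSO replicate 3 the number that fell was 3, and without any other single array it was 4. In the fit of 9 arrays it was 1. The genes that rose were Xirp1 (1.19), Tnnc1 (0.68), Tnni1 (0.50) and Myzap (0.45). Of these, Tnnc1 encodes the troponin C of slow and cardiac muscle and Tnni1 the slow troponin I. Tnnt2, cardiac troponin T, stood at 13.73, 13.75 and 13.73 and 13.72, 13.72 and 13.72, close to the array maxima, and was not called. Myh6, the heavy chain of adult cardiac myosin, was dim, at 7.23 to 7.35 with DMSO and 7.05 to 7.13 with TGFβ1, and its difference of -0.19 (adjusted p = 0.037) did not reach the fold limit.

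Of 26 genes of calcium handling, channels and coupling, 4 rose and 6 fell (15.4% and 23.1%, against 4.88% and 5.66% of all genes). Ryr2, the calcium release channel, went from 8.07 ± 0.08 to 7.36 ± 0.09, Cacna1c, the L-type channel, from 9.98 ± 0.05 to 9.57 ± 0.02, and Atp2a2, the calcium pump SERCA2, from 12.47 ± 0.06 to 12.11 ± 0.01 (SD, n = 3). Pln, which restrains that pump, had 6.71, 6.71 and 6.84 and 6.44, 6.49 and 6.31, with a log2 difference of -0.34 (standard error 0.06, adjusted p = 0.01). Its call was lost under quantile normalization, without DMSO replicate 3 and without TGFβ1 replicate 3. Slc8a1, Gja5, Cacna1g and Gjc1 were called higher by at most 0.43, and 2 of the list were called higher without DMSO replicate 2, DMSO replicate 3 or TGFβ1 replicate 2 and 1 without TGFβ1 replicate 1. Of 30 cardiac regulators and hormones, 5 rose and 9 fell. Nppb, the B-type natriuretic peptide, had 11.02 ± 0.07 with DMSO and 12.31 ± 0.02 with TGFβ1 (SD, n = 3), with a log2 difference of 1.29 (standard error 0.04, adjusted p = 1.67e-05), while Nppa, the A-type peptide, stood at 13.16 to 13.24 and 13.26 to 13.35 and was not called. Tbx20 had a difference of -1.04, Foxc1 one of -0.53 and Ppargc1a, a coactivator of mitochondrial genes, one of -0.87 (standard error 0.04). Of the 5 delivered factors, Gata4 was lower, with 10.83, 10.88 and 10.83 in the DMSO arrays and 10.29, 10.42 and 10.39 in the TGFβ1 arrays (adjusted p = 0.000593). Hand2 (0.10), Nkx2-5 (0.11), Mef2c (-0.11) and Tbx5 (-0.21) were not called. Whether these probe sets read the viral copies, the cell's own genes or both was not tested. For quantitative PCR the study lists human (Hs) assays for Nkx2-5, Gata4, Mef2c and Tbx5 and a mouse (Mm) assay for Hand2, whereas the chip is a mouse one.

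Endothelial transcripts moved in 1 direction where they were called. Of 28 measured, 17 fell and 0 rose by limma (0 also at an unadjusted p under 0.05), with a median of -0.51, and 15 to 17 fell without any single array and 3 in the fit of 9 arrays. The mean level over the list was 9.94 to 9.96 per DMSO array and 9.42 to 9.44 per TGFβ1 array. Egfl7, a secreted angiogenic protein, had 11.36, 11.26 and 11.41 with DMSO and 9.98, 10.01 and 9.98 with TGFβ1, with a log2 difference of -1.36 (standard error 0.05, adjusted p = 1.63e-05). Kdr, the main VEGF receptor, had 9.31, 9.12 and 9.22 and 8.03, 8.03 and 7.91, a difference of -1.22 (standard error 0.06). Esam, a junction protein, went from 11.30 ± 0.03 to 10.00 ± 0.08, and Erg, an endothelial transcription factor, from 10.37 ± 0.05 to 9.31 ± 0.06 (SD, n = 3). Sox7, Tek, Flt1, Tie1, Vwf and Mmrn2 fell by 0.70 to 0.98. Of the brighter members, Adgrf5 and Cd34 fell by 0.45 and 0.48, and others were not called. Cdh5 differed by 0.03 (adjusted p = 0.634), Emcn by -0.07 (adjusted p = 0.399), Ptprb, a phosphatase of endothelial junctions, by -0.09 (adjusted p = 0.132), and Eng, a TGFβ co-receptor, and Pecam1 by -0.19 and -0.24, both under the fold limit. The differences within the list thus ran from -1.36 to 0.11.

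**Figure D4:**
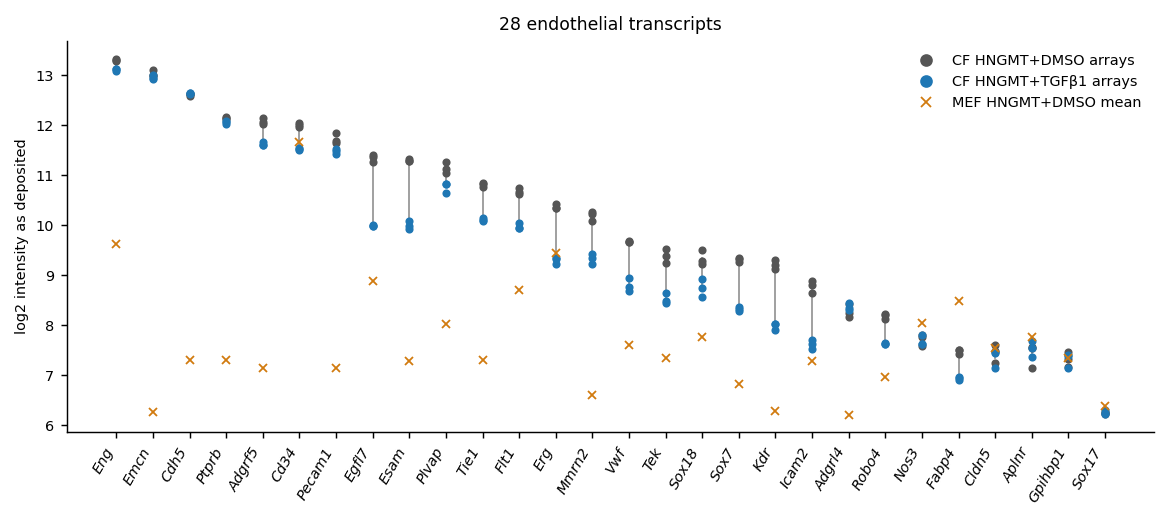
Log2 intensity of 28 endothelial transcripts, ordered by their DMSO mean in CFs, with grey (DMSO) and blue (TGFβ1) dots for single CF arrays and crosses for the MEF DMSO means. Cdh5 and Emcn lie above 12.5 in all 6 CF arrays, while Kdr, Egfl7 and Esam drop by 1.22 to 1.36 with TGFβ1.

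Genes tied to vessels outside that list showed both directions. Of 27 angiogenic factors and ligands 11 rose and 7 fell (40.7% and 25.9%, against 4.88% and 5.66% of all genes). Pgf, placental growth factor, rose by 1.76, Pdgfb by 1.47, Fgf2 by 0.85 and Vegfa by 0.60. Angpt2, with 9.87, 9.71 and 9.82 against 7.87, 7.97 and 7.81, and Pdgfd, Vegfd, Fgf7, Kitl, Apln and Angptl4 fell. Of 23 vasoactive peptides, receptors and guanylate cyclases 2 rose and 8 fell, with a median of -0.13. Npr1, the receptor of the natriuretic peptides, had 8.81, 8.82 and 8.90 and 7.32, 7.49 and 7.32, with a log2 difference of -1.47 (standard error 0.06, adjusted p = 2.45e-05). Ramp2, a subunit of the adrenomedullin receptor, had -1.51 and Ednrb, an endothelin receptor, -1.05, and both chains of soluble guanylate cyclase, Gucy1a1 and Gucy1b1, fell. Ace, the angiotensin-converting enzyme, rose by 0.41. Of 12 pericyte markers 4 rose and 1 fell, with Cspg4 at 1.30 and Pdgfrb, the PDGF receptor of mural cells and fibroblasts, at 1.05. The median of that list was -0.01, and at an unadjusted p of limma under 0.05, 4 were higher and 4 lower. In all 6 arrays 7 of the 12 were below the median gene, among them Rgs5, Abcc9 and Kcnj8, which were not called.

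Fibroblast markers did not move as one. Of 25 measured, 5 rose (Postn, Col3a1, Meox1, Gsn and Pdgfra) and 4 fell (Lum, Dcn, S100a4 and Islr), with a median of 0.16. S100a4, a small protein that binds calcium and is known as a fibroblast marker, had 9.45, 9.45 and 9.45 with DMSO and 9.30, 8.88 and 8.95 with TGFβ1. Its adjusted p of 0.0392 rests on an SD of 0 in the DMSO arrays, and the call was lost in 5 of the 6 fits that left out 1 array, with TGFβ1 replicate 1 as the exception. Without TGFβ1 replicate 2 or 3, 2 of the list were called lower. Vim differed by 0.00 (adjusted p = 0.955) near the top of the scale. Of 24 mesenchymal transcription factors 6 rose and 6 fell. Sox9, a factor of cartilage and valve cells, had 8.13, 8.26 and 8.35 with DMSO and 9.40, 9.47 and 9.62 with TGFβ1, again without overlap. Runx1 rose by 1.19 and Scx, a factor of tendon and valve cells, by 1.08, while Zeb2 and Prrx1 had -0.64 and -0.74. Snai1 rose by 0.64 and its relative Snai2 fell by 0.61.

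Genes of cell division fell. All 30 measured genes of mitosis were called lower, from -1.12 to -0.43, with a median of -0.84 and no overlap between the groups for any of them, against 5.66% of all genes called lower and 32.9% without overlap. The mean level over the list was 9.60 to 9.76 per DMSO array and 8.83 to 9.03 per TGFβ1 array. Mki67, the marker protein of cycling cells, had 10.39, 10.34 and 10.59 with DMSO and 9.59, 9.35 and 9.49 with TGFβ1, with a log2 difference of -0.96 (standard error 0.09, adjusted p = 0.000523). Top2a, the topoisomerase that untangles chromosomes, had 10.50, 10.07 and 10.31 and 9.42, 9.05 and 9.18, with a log2 difference of -1.08 (standard error 0.13, adjusted p = 0.00216). Cdk1, the kinase that starts mitosis, had 11.16, 10.83 and 11.02 and 10.39, 10.27 and 10.31, with a log2 difference of -0.68 (standard error 0.08, adjusted p = 0.00213). The groups were apart in each case, and 28 to 30 of the list fell without any single array and 4 in the fit of 9 arrays. Of 30 genes of replication and G1/S, 22 fell and 0 rose by limma (0 also at an unadjusted p under 0.05), with a median of -0.43, and 16 to 22 fell without single arrays. E2f8, a repressor among the E2F factors, had -1.00, and Mcm2 to Mcm5, Mcm7 and Mcm10, parts of or loaders for the replicative helicase, all fell. Of 22 G1 cyclins, CDK inhibitors and Myc genes, Gadd45b and Cdkn2b rose and Cdkn2c, Rbl1 and Mycn fell. Cdkn2b, the inhibitor p15 that TGFβ is known to induce, went from 9.76 ± 0.06 to 10.30 ± 0.01 (SD, n = 3, adjusted p = 0.000256), and Myc differed by -0.02 (adjusted p = 0.87).

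Mitotic promoters are known for the cell cycle homology region, read here as TTTGAA, and for the CCAAT box, read as CCAAT. On either strand, TTTGAA was found in 9 of 26 mitosis genes with a window and in 13.7% of all windows, and CCAAT in 19 of 26 and in 35.5%. The windows of Mki67 (chr7:135716380-135716629, minus strand), Top2a (chr11:99024190-99024439, minus strand) and Cdk1 (chr10:69352913-69353162, minus strand) are shown as they hold both, with each match in capitals.
Mki67: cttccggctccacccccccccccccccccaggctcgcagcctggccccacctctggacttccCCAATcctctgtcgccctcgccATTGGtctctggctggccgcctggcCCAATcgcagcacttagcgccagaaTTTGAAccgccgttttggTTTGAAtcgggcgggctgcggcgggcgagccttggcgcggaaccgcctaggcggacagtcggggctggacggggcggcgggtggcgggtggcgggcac
Top2a: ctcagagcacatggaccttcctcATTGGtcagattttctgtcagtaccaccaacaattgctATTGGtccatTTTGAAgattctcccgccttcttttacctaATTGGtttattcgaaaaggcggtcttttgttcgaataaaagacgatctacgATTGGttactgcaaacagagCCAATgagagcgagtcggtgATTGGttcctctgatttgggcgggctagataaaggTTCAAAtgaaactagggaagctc
Cdk1: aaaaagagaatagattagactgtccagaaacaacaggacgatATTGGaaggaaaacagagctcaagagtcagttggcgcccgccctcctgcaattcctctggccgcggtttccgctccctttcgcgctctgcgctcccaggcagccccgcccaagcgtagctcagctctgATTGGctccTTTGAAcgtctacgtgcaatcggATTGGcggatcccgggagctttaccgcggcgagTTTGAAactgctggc
TTTGAA occurs in 2 places in each of these windows, and CCAAT in 3 places for Mki67 and Cdk1 and in 6 for Top2a.

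Interferon-induced genes fell in part. Of 34 measured, 9 fell and 0 rose by limma (0 also at an unadjusted p under 0.05, where 23 were lower), with a median of -0.37. Ifit3, which takes part in the antiviral response, had 11.60, 11.28 and 11.24 with DMSO and 10.81, 9.74 and 9.60 with TGFβ1, with a log2 difference of -1.32 (standard error 0.32, adjusted p = 0.0292). Slfn5, a member of the schlafen family, had 10.49, 10.02 and 10.18 and 9.08, 8.57 and 8.63, with a log2 difference of -1.47 (standard error 0.17, adjusted p = 0.00153). Gbp3, a guanylate-binding protein, had 9.85, 9.32 and 9.46 and 9.02, 8.21 and 8.35, with a log2 difference of -1.02 (standard error 0.23, adjusted p = 0.0253). Replicate 1 was the highest array of its group for all of these, in both groups, and the list's mean level was 9.93 in DMSO replicate 1 against 9.68 in the other DMSO arrays, and 9.55 in TGFβ1 replicate 1 against 9.13 and 9.20. With the replicate number as a block 17 fell. Without TGFβ1 replicate 1 the count was 19, without TGFβ1 replicate 3 it was 3, and without DMSO replicate 3, DMSO replicate 1 or TGFβ1 replicate 2 it was 4, 5 and 5. Ifit1, a relative of Ifit3, was not called, as its DMSO arrays at 10.82 to 11.44 and TGFβ1 arrays at 9.81 to 10.92 overlapped (adjusted p = 0.133).

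The interferon-stimulated response element, read as GAAANNGAAA on either strand, was found in 11 of 28 of these genes with a window, in 4 of the 7 that fell, and in 2.93% of all windows. The windows of Ifit3 (chr19:34583279-34583528, plus strand), Gbp3 (chr3:142559794-142560043, plus strand) and Slfn5 (chr11:82951852-82952101, plus strand) are shown as members that fell, with matches in capitals.
Ifit3: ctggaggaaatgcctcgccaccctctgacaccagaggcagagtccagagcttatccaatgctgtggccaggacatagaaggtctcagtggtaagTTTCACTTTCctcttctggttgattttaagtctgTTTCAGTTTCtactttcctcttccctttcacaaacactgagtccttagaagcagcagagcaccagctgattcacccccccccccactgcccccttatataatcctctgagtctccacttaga
Gbp3: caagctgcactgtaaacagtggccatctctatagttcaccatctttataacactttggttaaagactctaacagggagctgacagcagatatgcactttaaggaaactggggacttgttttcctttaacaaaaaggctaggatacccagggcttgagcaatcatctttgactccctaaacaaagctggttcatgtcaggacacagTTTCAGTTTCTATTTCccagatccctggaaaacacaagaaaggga
Slfn5: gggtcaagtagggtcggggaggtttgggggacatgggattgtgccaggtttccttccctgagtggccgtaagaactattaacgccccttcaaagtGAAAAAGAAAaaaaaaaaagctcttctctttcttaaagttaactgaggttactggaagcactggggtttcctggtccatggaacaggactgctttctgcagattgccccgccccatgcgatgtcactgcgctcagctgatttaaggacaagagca
The pair of matches in Gbp3 overlap each other.

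Of 41 chemokines, cytokines and prostaglandin enzymes, 11 rose and 4 fell, with a median of 0.03, close to that of all genes. Il1a, the cytokine interleukin-1 alpha, went from 6.81 ± 0.29 to 8.79 ± 0.06, and Ptgs2, the inducible cyclooxygenase, from 10.68 ± 0.07 to 12.11 ± 0.05 (SD, n = 3). Ccl7 rose by 0.80, Cxcl16 by 0.79 and Il6 by 1.02. Ccl5, Il15, Vcam1 and Nfkbia fell, and 2 of the list were called lower without DMSO replicate 1 or without TGFβ1 replicate 3. Of 21 complement and acute phase genes 5 fell and 0 rose by limma (2 were higher at an unadjusted p under 0.05), with Lbp, the lipopolysaccharide-binding protein, at -1.04 and Cp, ceruloplasmin, at -0.86. Of 27 leukocyte markers, Csf1r, the receptor of macrophage growth factor, rose by 1.37 and Coro1a by 1.05. These are 7.41% of the list, near the 4.88% of all genes called higher. Cd14 differed by 0.14 (adjusted p = 0.0803).

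Growth factor and patterning pathways gave smaller counts, to be read against 4.88% of all genes called higher and 5.66% lower. Of 15 IGF ligands and binding proteins 4 rose and 2 fell. Igf1 rose as given above, and Igf2, the fetal ligand, had 9.61, 9.57 and 9.64 with DMSO and 7.75, 7.98 and 7.94 with TGFβ1, with a log2 difference of -1.72 (standard error 0.06, adjusted p = 2.31e-05). So the related ligands moved in opposite directions. Of 31 Wnt ligands, receptors and feedback genes 5 rose (Fzd2 by 0.84, Wnt11 by 0.61) and 4 fell (Fzd4 by 1.03), and of 11 secreted Wnt antagonists 2 rose. Of 19 Notch genes 4 rose (Lfng, Notch4, Heyl and Hey2, by at most 0.62) and 3 fell, with a median of -0.04. Those that fell were Notch1 at -0.80, its ligand Jag1 at -0.40 and the feedback gene Nrarp at -0.96. Of 26 xenobiotic and retinoid enzymes 4 rose and 11 fell. Aldh1a2 and Aldh1a3 both make retinoic acid, and their differences were -0.82 and 0.92.

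Few metabolic genes were called, and the counts here are to be read against 4.88% of all genes called higher and 5.66% lower. The 4% called higher for fatty acid oxidation and the 5.26% called lower for cholesterol synthesis lay near those shares. Of 35 genes of oxidative phosphorylation 0 rose and 0 fell by limma (6 and 3 at an unadjusted p under 0.05), with a median of 0.06 and a range of -0.23 to 0.32. Of 25 genes of fatty acid oxidation and its coactivators 1 rose and 3 fell, with Pdk4, a brake on glucose oxidation, at -0.71 and Ppargc1a from 7.58, 7.58 and 7.57 to 6.68, 6.76 and 6.67. Of 24 genes of glycolysis and hypoxia 3 rose, with Pfkfb3, an activator of glycolysis, at 0.93, and 1 fell. Of 19 cholesterol synthesis genes 1 fell, of 29 genes of the ATF4 and unfolded protein responses 3 rose and 1 fell, and of 18 apoptosis genes 2 rose and 2 fell. The count that rose became 5 without DMSO replicate 2 for glycolysis and 5 without TGFβ1 replicate 2 for the ATF4 list, and counts of 2 or fewer in these lists went up or down by 1 with the array left out. Of 11 reference genes 0 were called by limma (3 were lower and 0 higher at an unadjusted p under 0.05). Among markers of further cell types, 3 of 28 adipocyte genes rose and 4 fell, and 3 of 14 neural and 3 of 26 skeletal muscle genes rose. Of 23 genes of cartilage, tendon and bone 6 rose, but 4 or 5 did without single arrays. In all 6 arrays 14 of these 23 were below the median gene. Of 16 epicardial genes 3 rose (Krt7, Krt8 and Krt18, keratins of simple epithelia) and 4 fell, with a median of 0.01. Those that fell were Gpm6a (-1.03), Aldh1a2 (-0.82), Upk1b (-0.77) and Aldh1a1 (-0.50). Krt7 had 9.60, 9.90 and 9.81 with DMSO and 11.81, 11.89 and 11.94 with TGFβ1, with a log2 difference of 2.11 (standard error 0.08, adjusted p = 2.43e-05).

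The same dose of TGFβ1 had been given to MEFs with HNGMT, and the difference between the responses was tested as an interaction in 1 limma fit of 12 arrays. In MEFs 443 genes rose (2.22%) and 706 fell (3.54%) at a fold of at least 1.5. The response was higher in CFs for 590 genes (2.96%) and lower for 428 (2.15%), at an adjusted p under 0.05 and a difference of at least 1.5-fold. The arrays of the cell types may have been normalized apart, and their cells differ in age, tissue and the markers described above. Of the genes called in CFs, 239 of 972 that rose (24.6%) also rose in MEFs, which is 54.0% of the MEF genes that rose, and 349 of 1128 that fell (30.9%) also fell, which is 49.4% of the MEF genes that fell. Those shares rest on unlike fold limits, and with the limit for CFs in both cell types 458 rose in both (47.1% of the CF genes and 30.1% of the MEF genes) and 521 fell in both (46.2% and 37.6%). At the unlike limits another 43 rose in CFs and fell in MEFs, and 15 fell in CFs and rose in MEFs. A difference between the cell types was called for 258 of the genes that rose and 346 of those that fell in CFs.

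Of the 41 genes of elastic fibers and matrix glycoproteins, 19 had a higher response in CFs and 0 a lower one. In MEFs 14 of the 41 were called lower and 0 higher. In CFs 8 of the 41 were below the median gene in all 6 arrays, which leaves less room for a fall, and their part in the 19 was not tested. Eln differed by 2.86 in CFs and by -2.32 in MEFs, so that the responses were apart by 5.19 (standard error 0.06, adjusted p = 3.05e-13). Col3a1 differed by 0.74 and -0.97 (adjusted p of the difference = 8.24e-09). Sox9, which rose in CFs, had a difference of -1.06 in MEFs. Pmepa1 differed by 1.64 in CFs and by 0.05 in MEFs, where it was not called (adjusted p = 0.449). Ace, with 0.41 and -2.05, was called in opposite directions. Plau, with -1.41 and 0.05, had a lower response in CFs. Of the 28 endothelial genes 3 were called lower in MEFs, against 3.54% of all genes. The response was lower in CFs for 9 of them and higher for 2, against 2.15% and 2.96% of all genes. In the MEF DMSO arrays 22 of the 28 were below the median gene, which leaves less room for a fall. The part of such low levels in these counts was not tested. Mitosis genes fell in both cell types, by a median of 0.84 in CFs and 1.48 in MEFs, and 17 of the 30 had a called difference, all of them with the smaller fall in CFs. Nppb, with 1.29 and 1.32, and Olr1, with 2.33 and 2.40, had responses apart by -0.03 (standard error 0.07) and -0.07 (standard error 0.15), neither of them called (adjusted p = 0.865 and 0.864).

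**Figure D5:**
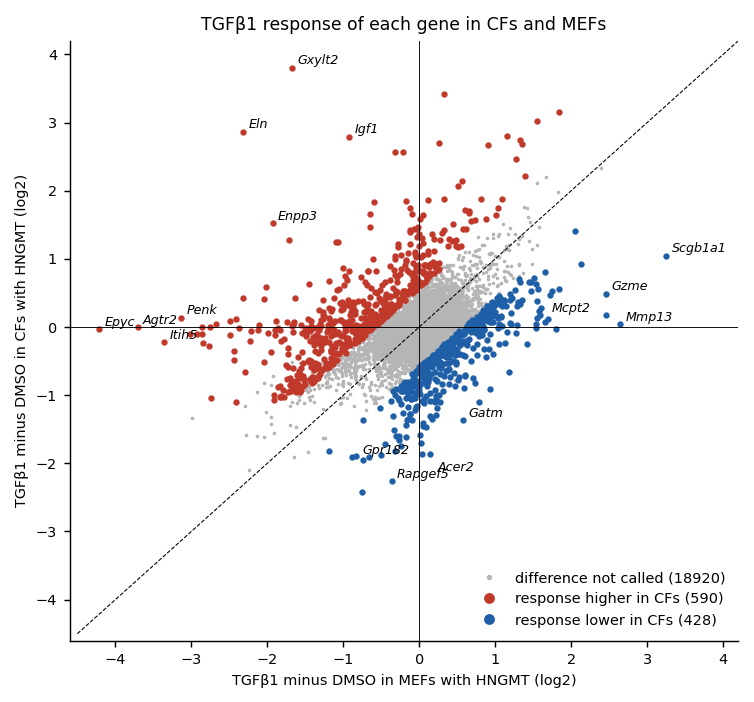
Each dot is a gene, placed by its TGFβ1 minus DMSO difference (log2) in MEFs (horizontal) and in CFs (vertical), the dashed line marks equal responses, and the 590 genes with a higher (red) and the 428 with a lower response in CFs (blue) are coloured. Gxylt2, Eln and Igf1 lie at the upper left, higher with TGFβ1 in CFs and lower in MEFs.

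The study also lists genes that the receptor inhibitor SB raised or lowered in both cell types. Those lists were chosen on samples that include the same CF DMSO arrays, so they are no independent evidence, and the TGFβ1 and SB values below share their control. Of the 10 measured genes listed as lowered by SB, all 10 rose with TGFβ1, with a median of 1.19. Their median with 5 µM SB was -0.90 without SB replicate 3. Adamtsl2 had 1.85 with TGFβ1 and -1.33 with SB (-1.46 with all 3 SB arrays), and Ccl17 had 3.03 and -1.18 (-0.80). Of the 19 measured genes listed as raised by SB, 15 fell with TGFβ1, 3 were not called and Plet1 rose by 0.39 (a call lost without DMSO replicate 1 or 2 or TGFβ1 replicate 2 or 3), with a median of -0.82 against 0.40 with SB. Tgfbr3 had -1.62 with TGFβ1 and 0.50 with SB (0.29), Ppargc1a had -0.87 and 0.18 (-0.05), and Angpt2 had -1.91 and 0.83 (0.18).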

How the data were processed

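RNA of 27 mouse cultures was hybridized to Affymetrix Mouse Gene 1.0 ST chips, with 3 cultures per group, and 6 were compared here. The authors deposited log2 intensities of 35556 probe sets. Per the labels these were made with MAS5, and the methods also name PartekGS. Background correction and normalization are not given in the sources used here. The number of arrays limits the precision.

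Of the probe sets, 21789 carry 1 symbol, 1621 several and 12146 none, and 999 genes had more than 1 probe set. The 6 arrays were fitted with limma 3.58.1 (lmFit, eBayes) in R 4.3.3, without a block, and p-values were Benjamini-Hochberg adjusted over all 19938 genes. The 12 HNGMT arrays with DMSO or TGFβ1 gave the MEF contrast and the interaction, called at 1.5-fold. Python 3.11.15 and matplotlib 3.10.9 drew the plots. The fits were also run on simulated data, only to check the code. Those data had independent normal noise, without the correlation between arrays or the equal values within a group seen here.

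The comparison, the gene lists and the named genes were chosen with earlier results of these data known. Named were the 15 highest and 15 lowest differences, the 8 highest and 8 lowest interactions, the 4 members of a list with the lowest p-values, the delivered factors and genes that the study names. Other list members were named for their role or to complete a count, after their values were seen.

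Deviations of arrays that share a number correlated at 0.651, 0.555 and 0.117, and 4 of 6 arrays correlated best with their own number, a hint from the data and not the design. The numbers were therefore treated as pairs in an alternative fit with the replicate block. Other alternatives changed the variance model, the arrays, the fold limit, the normalization, the probe set summary and a filter on genes dim in these arrays. RefSeq GRCm38.p6 gave the promoter windows. The authors' own fold changes were not used.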

Additional observations from a re-analysis of the deposited data

Results flagged for a closer look

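The response to TGFβ1 differed between CFs and MEFs with HNGMT in the interaction test of limma for 590 genes with a higher and 428 with a lower response in CFs. A value below is the CF response minus the MEF response on the log2 scale, and every gene named here had an adjusted p under 0.05. The cell types may have been normalized apart, and the part of that in these values was not tested.

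The highest were Gxylt2 at 5.47, with 3.80 in CFs and -1.67 in MEFs, and Eln at 5.19, with 2.86 and -2.32. Epyc, a small proteoglycan, stood at 4.18 (-0.03 and -4.21), Igf1 at 3.72 (2.79 and -0.92) and Agtr2, an angiotensin receptor, at 3.70 (0.00 and -3.71). Enpp3, an ectoenzyme, stood at 3.45 (1.52 and -1.93), Penk, which encodes proenkephalin, at 3.27 (0.14 and -3.13) and Itih5 at 3.13 (-0.22 and -3.36). In CFs the differences of Epyc, Agtr2, Penk and Itih5 were below the fold limit for CFs. Their DMSO levels were 5.58, 6.04, 5.97 and 7.09 in CFs, below the median gene of every array, and 10.83, 11.34, 13.66 and 10.84 in MEFs. Such levels leave less room for a fall in CFs, and their part in these values was not tested.

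The lowest were Mmp13, a collagenase, at -2.60 (0.04 in CFs and 2.64 in MEFs), Mcpt2, a mast cell protease, at -2.29 (0.17 and 2.46) and Scgb1a1, a secretoglobin, at -2.20 (1.05 and 3.25). Acer2 stood at -2.02 (-1.87 and 0.14), Gzme, a granzyme, at -1.97 (0.49 and 2.45), Gatm, an enzyme of creatine synthesis, at -1.95 (-1.37 and 0.58), Rapgef5 at -1.90 (-2.26 and -0.36) and Gpr182 at -1.90 (-1.86 and 0.03). Rapgef5 and Gpr182 had DMSO levels of 6.54 and 6.72 in MEFs, which leaves less room for a fall there. Mmp13, Mcpt2 and Gzme were dim in CFs with DMSO, at 6.20, 6.23 and 6.38.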

How the results depend on the processing

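For TGFβ1 against DMSO in CFs, 972 genes were higher and 1128 lower, and no result of the fits below reversed. With all 9 CF arrays in the fit the counts were 621 and 439, all of them among the genes called with 6 arrays. With 8 arrays, SB replicate 3 left out, they were 990 and 1157. In the fit of 9 arrays 29 of the 44 gene lists with a call had their count of called members lowered by over 1.5 times: genes lower went from 30 to 4 for mitosis, 22 to 7 for replication, 17 to 3 for endothelium, 7 to 0 for BMP signaling and 7 to 1 for angiogenic factors, and genes higher from 20 to 13 for TGFβ targets, 12 to 4 for contractile genes and 4 to 1 for pericytes. With no fold limit the counts were 1888 and 1954, at 1.5-fold 399 and 457, and at 2-fold 136 and 116. Without 1 of the 6 arrays they ran from 870 to 996 and from 925 to 1302. The replicate block gave 1005 and 1227 and kept every gene called without it. Beside the interferon count and 1 more cholesterol gene, it moved no list count by over 1.5 times. A robust variance trend gave 980 and 1137, omission of dim genes 901 and 1074, quantile normalization 1069 and 1058, and the mean of probe sets 972 and 1116. Quantile normalization moved the median of all genes to 0.01. The interaction counts of 590 and 428 became 1694 and 2325 without the fold limit and ran from 553 to 627 and from 386 to 494 without 1 array. The MEF counts of 443 and 706 became 1522 and 1387 at the fold limit for CFs and ran from 409 to 509 and from 673 to 743. Other fold limits were not applied to single genes. Over the alternatives that kept the fold limit, 66 of the 206 named genes lost their call in at least 1, 63 of these with all 9 CF arrays, and 5 others gained one.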

Other observations

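Of the genes called with TGFβ1 in CFs at 2-fold or more, 145 belong to no list and were not named above, 78 of them higher and 67 lower. The genes named from these, here and for vessels, were chosen after their values were seen. Members of the tumor necrosis factor family and its receptors were among those that rose. Cd40, a receptor that T cells engage, had 8.25, 8.47 and 8.33 with DMSO and 10.59, 10.58 and 10.50 with TGFβ1, without overlap (log2 difference 2.21, standard error 0.06). Tnfsf18, a ligand of this family, rose by 1.88, Tnfrsf11b, the decoy receptor osteoprotegerin, by 1.37 and Tnfrsf9 by 1.13, whereas Tnfsf10, the ligand TRAIL, fell by 1.07. F3, the tissue factor that starts coagulation, rose by 1.43 and Plaur, the receptor of urokinase, by 1.07, beside the fall of Plau. The secreted peptides Gal (galanin) and Pyy (peptide YY) rose by 1.37 and 1.44.

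Several genes known from vessels, outside the endothelial list, were also called. Sele, the E-selectin that captures leukocytes, had 9.86, 9.64 and 9.83 with DMSO and 8.24, 8.17 and 8.17 with TGFβ1, a log2 difference of -1.58 (standard error 0.06). Stab1, a scavenger receptor, fell by 1.37, Clec14a, an endothelial lectin, by 1.08, Calcrl, the partner of Ramp2 in the adrenomedullin receptor, by 1.07 and Epas1, a hypoxia-inducible factor, by 1.06. Gja4, the arterial connexin 37, and Angpt4, an angiopoietin, rose by 1.23 and 2.14.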
